A study of Homo sapiens with 12 samples.

Results

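The genes described here encode the integrins, the cell-surface receptors that hold cells to the surrounding matrix, and the laminins, basement membrane proteins to which several of them bind. They were chosen by symbol: 26 integrin genes (18 alpha chains, ITGA, and 8 beta chains, ITGB) and 12 laminin genes (5 alpha, LAMA, 4 beta, LAMB, and 3 gamma, LAMC), 38 of the 26464 genes kept from the deposited tables. PC3, a prostate adenocarcinoma line, and MG63, an osteosarcoma line, were each transfected with 10 nM siRNA in a lipid reagent and harvested after 72 h for poly(A) RNA sequencing. The siControl groups received a non-targeting siRNA, the siLARP4A groups siRNA against LARP4A (gene symbol LARP4) and the siLARP4B groups siRNA against LARP4B. All 6 groups carry the genotype label WT, each holds 2 biological replicates, and the labels used here give neither the sequences nor the number of siRNAs per target. Both targets are RNA-binding proteins of the La-related family, and the series asks what each contributes to these tumour lines.

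An integrin is a pair of 1 alpha and 1 beta chain, and the pair sets the ligand: some bind laminin, others collagen, and others the RGD sequence of fibronectin and vitronectin. Inside the cell the beta chain is tied to actin through talin, kindlin and paxillin, and in epithelial cells the ITGA6 and ITGB4 chains form the receptor of hemidesmosomes. A laminin is a trimer of 1 alpha, 1 beta and 1 gamma chain. LAMA3 and LAMB3 belong to the laminin of epithelial anchoring, whereas LAMA5 and LAMA4 chains with LAMB1 or LAMB2 and LAMC1 are more widespread.

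Promoter windows from RefSeq (GRCh38.p14) were found for 26 of the 38 genes, in 33 windows, and 3 are shown for genes that the results turn on. ITGA2 had the largest siRNA difference among expressed members, and LAMA3 and LAMB3 encode chains of the same epithelial trimer. Each is the run of 250 bases before an annotated start, 5′ to 3′ on the gene's strand. For ITGA2 (chr5:52989102-52989351, plus strand) capitals mark GGGCGG, the core of a GC box. For LAMA3 (chr18:23872770-23873019, plus strand, before the start of the short models) and LAMB3 (chr1:209651375-209651624, minus strand) capitals mark TGANTCA, the letters that Jun and Fos family factors bind.
ITGA2: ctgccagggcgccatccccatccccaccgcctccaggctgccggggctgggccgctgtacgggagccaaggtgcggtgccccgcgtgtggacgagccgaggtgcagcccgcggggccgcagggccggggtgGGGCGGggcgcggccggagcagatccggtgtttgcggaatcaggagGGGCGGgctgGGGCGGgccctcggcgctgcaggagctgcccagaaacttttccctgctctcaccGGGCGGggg
LAMA3: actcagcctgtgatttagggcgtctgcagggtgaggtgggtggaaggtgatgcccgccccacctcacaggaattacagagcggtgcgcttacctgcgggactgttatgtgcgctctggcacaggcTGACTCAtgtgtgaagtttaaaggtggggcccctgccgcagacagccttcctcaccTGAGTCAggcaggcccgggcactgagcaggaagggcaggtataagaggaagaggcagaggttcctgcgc
LAMB3: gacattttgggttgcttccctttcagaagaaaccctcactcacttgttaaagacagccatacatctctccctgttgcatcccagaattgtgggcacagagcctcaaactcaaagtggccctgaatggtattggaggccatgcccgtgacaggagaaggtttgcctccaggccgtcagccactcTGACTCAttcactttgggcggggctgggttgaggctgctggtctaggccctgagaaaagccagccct
Searched on both strands, GGGCGG occurred 4 times in the ITGA2 window, in 17 of the 33 windows of members and in 42.6% of the 35116 RefSeq windows of the same length. The letters TGANTCA had 2 matches in the LAMA3 window and 1 in the LAMB3 window shown, the only 2 of the 33 windows of members to hold them, and occurred in 6.57% of all windows. LAMB3 windows before the starts at chr1:209652329 and chr1:209652425, not shown, held 0. A match describes the letters and shows no bound site.

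Library totals behind the deposited values ran from 16950119 to 24864977 fragments. The counting setting for strand is not given, so fragments of genes that overlap on opposite strands cannot be told apart. Such pairs are ITGB4 with GALK1, ITGA7 with METTL7B, ITGA4 with CERKL, ITGAE with HASPIN and ITGB7 with ZNF740. Others are ITGA5 with LOC102724050, ITGB3 with THCAT158, ITGB8 with LOC101927811 and LAMA1 with LOC101927188. Antisense genes lie at LAMA4, LAMA5, LAMC1, ITGA6, ITGA9 and ITGB2. ITGA1 overlaps PELO on the same strand, where no strand setting would separate them. LARP4 was 19.0 and 19.4 FPKM (fragments scaled by the length of the gene model and the library total) in PC3 siControl and 2.36 and 2.47 with siLARP4A, and in MG63 it was 8.182 and 8.503 against 2.11 and 2.19, log2 changes of -2.98 and -1.96. LARP4B was 7.02 and 7.18 FPKM in PC3 siControl and 1.35 and 1.26 with siLARP4B, and in MG63 6.64 and 6.78 against 1.89 and 2.20, log2 changes of -2.44 and -1.70. LARP4 was also higher with siLARP4B in MG63, at 10.6 and 11.5 FPKM. All 5 epithelial markers (KRT8, KRT18, KRT19, EPCAM, CDH1) were at least 3.45 FPKM in PC3 siControl. Among 6 mesenchymal markers in MG63 siControl, COL1A1, COL1A2, SPARC, THY1 and CDH2 lay between 7.29 and 744.5 FPKM, but RUNX2, an osteoblast factor, was at 0.159, and CDH2 was higher in PC3 at 22.6. PC3 siLARP4A and MG63 siLARP4B replicates stood furthest apart, with a chi-square per degree of freedom of 6.47 and 5.20 against 1.65 to 2.63 in the other 4 groups.

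Taking a group mean of at least 1 FPKM in any of a line's 3 groups as expressed, 15 members were expressed in both lines, 3 only in PC3, 7 only in MG63, and 13 in neither. In siControl cells ITGB1, the beta chain shared by most alpha chains, was the most abundant member of both lines, at 238 and 254 FPKM in PC3 and 314 and 317 in MG63. ITGA3, a laminin-binding alpha chain, was the most abundant alpha chain of both, at 104 and 101 FPKM in PC3 and 102 and 106 in MG63, ranges that overlapped. ITGB4 was 92.5 and 86.9 FPKM in PC3 and 0.188 and 0.222 in MG63. MG63 in turn held LAMA2, a laminin chain of muscle and connective tissue, at 7.23 and 7.13 FPKM against 0.121 and 0.179 in PC3. It also held ITGA11, a collagen receptor chain of mesenchymal cells, at 4.95 and 4.78 FPKM, where PC3 had 0 and 0.0206. In each of these 3 genes the lines did not overlap. In all, 29 of the 33 members that could be tested differed between the siControl groups, 8 higher and 21 lower in PC3, beside 82.0% of all 15683 tested genes, 41.3% higher and 40.7% lower. Of these, 26 differed by at least 0.5 on the log2 scale, beside 64.7% of all genes. Members present in only 1 line passed the filter through that line, so nothing is read from that count.

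**Figure D1:**
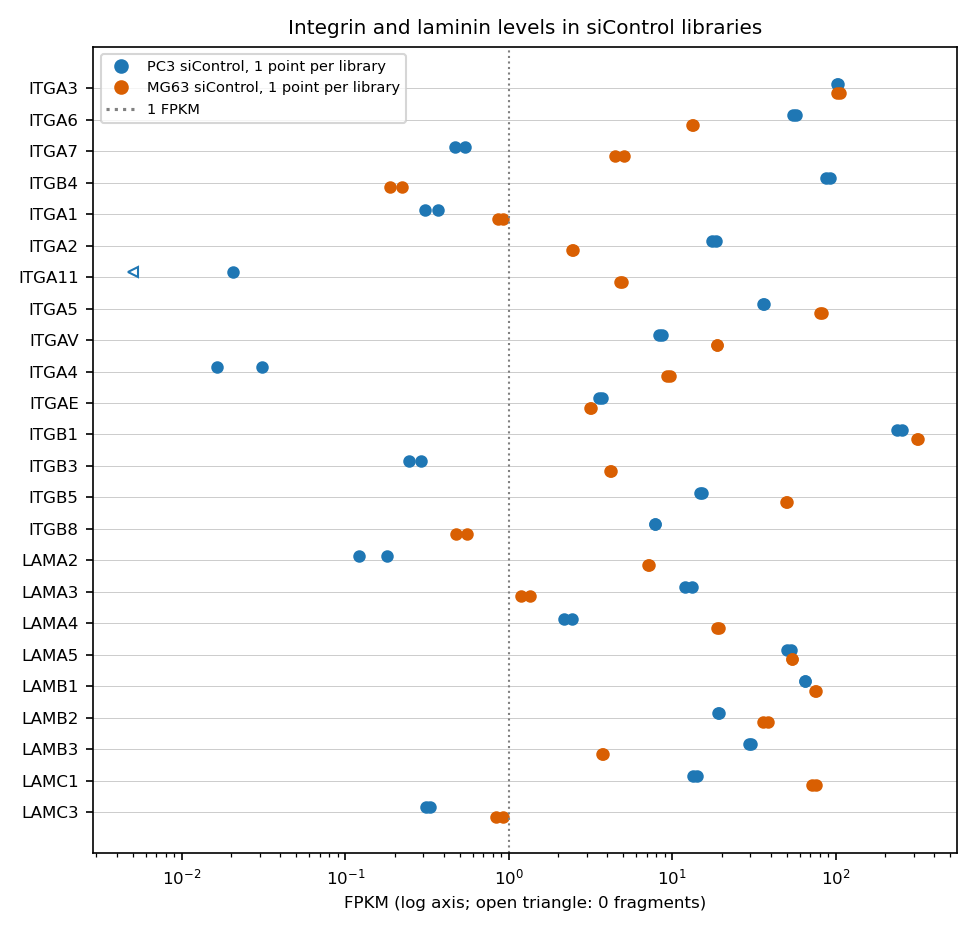
FPKM on a log axis of 24 members that reached a mean of 1 FPKM in at least 1 group, in the siControl libraries of PC3 (blue) and MG63 (orange), 1 point per library. ITGB1 and ITGA3 lie together at the right for both lines, whereas ITGB4 is high in PC3 only and LAMA2 and ITGA11 in MG63 only.

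Most of the integrin genes that MG63 expresses rose there with siLARP4A. Of 33 tested members, 20 rose and 2 fell (edgeR quasi-likelihood test, adjusted p under 0.05), beside 26.8% of all genes called, 13.3% higher and 13.5% lower. With a log2 change of at least 0.5 either way, 13 members were called, those under 1 FPKM included, beside 7.99% of all genes. The median log2 change of the 33 was 0.45, beside 0.00 for all tested genes. The share called was 66.7%, beside 36.6% of all genes with a mean of at least 5 FPKM required. Among the 22 tested integrins, low ones included, 15 rose and 0 fell. Members under 1 FPKM in MG63 may have passed the filter through the group where they were higher, so nothing is read from their calls. Of the 22 members expressed in MG63, 14 rose, 2 fell and 6 did not pass. ITGB3 (0.97 on the log2 scale), ITGA2 (0.80) and ITGA4 (0.77) had the largest changes among these. Without MG63 siLARP4A replicate 2 the count of called members was 14, and 13 of the 22 calls were kept whichever library was left out. In the same libraries 4 of 6 mesenchymal markers rose and 0 fell, with COL1A1 at a mean of 744.5 FPKM in siControl and 1316 with siLARP4A. Of the 5 epithelial markers 0 rose and 2 fell there. Of the 3 endothelial markers, CDH5 was at 3.41 and 6.04 FPKM, PECAM1 at 0.479 and 0.334, and VWF at 0.0396 and 0.0284. Their part in the member changes was not tested.

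With siLARP4B in MG63, more members fell than rose. Of the 33, 5 rose and 10 fell, beside 34.9% of all genes called, 18.0% higher and 16.9% lower. With a log2 change of at least 0.5 either way, 5 members were called, beside 11.1% of all genes. The median log2 change was -0.21, beside -0.00 for all genes. The share of members called was 45.5%, near the 46.0% of all genes with a mean of at least 5 FPKM required. Among the 22 expressed in MG63, 3 rose and 9 fell, led downward by ITGA6 (-0.82), ITGA2 (-0.76) and ITGA11 (-0.67). In these libraries both tested leukocyte markers were called lower (median log2 -1.02), CD14 at a mean of 2.21 FPKM with siControl and 1.07 with siLARP4B and CD68 at 29.1 and 14.3, with CD3E at 0. Both tested endothelial markers were called lower too (median log2 -0.81), CDH5 at 3.41 and 2.19 FPKM and PECAM1 at 0.479 and 0.237, with VWF at 0.0396 and 0.0118. Of the 6 mesenchymal markers 1 rose and 2 fell, and of the 5 epithelial markers 0 rose and 2 fell. Their part in the member changes was not tested. Without MG63 siControl replicate 1 the count of called members was 9, and 7 of the 15 calls were kept whichever library was left out.

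In PC3 the members moved in both directions with either siRNA. With siLARP4A, 10 of 33 rose and 6 fell, beside 36.4% of all genes called, 19.5% higher and 16.9% lower, and 14 of the 16 calls were kept whichever library was left out. LAMB3 (0.66), ITGA5 (0.64) and LAMA4 (0.62) rose most among expressed members, and ITGB4 (-0.58) fell most. With siLARP4B, 11 rose and 8 fell, beside 45.7% of all genes called, 24.8% higher and 20.9% lower. ITGA2 (-1.82), ITGA6 (-0.91) and ITGAV (-0.69) fell most. Without PC3 siControl replicate 2 that count was 11, and 9 of the 19 calls were kept whichever library was left out. With a log2 change of at least 0.5 either way, 7 members were called with siLARP4A and 8 with siLARP4B, beside 11.4% and 19.9% of all genes. Median log2 changes in PC3 were 0.03 and 0.05, beside 0.03 and 0.04 for all genes. The share of members called was 48.5% with siLARP4A and 57.6% with siLARP4B. These lay near the 49.3% and 57.7% of all genes called with a mean of at least 5 FPKM required. Of the 18 members expressed in PC3, 8 rose and 6 fell with siLARP4A, and 6 rose and 8 fell with siLARP4B. In each line both siRNAs were compared with the same siControl libraries, so the 2 comparisons are not independent of each other. In bulk RNA, fewer cells with a transcript and less of it per cell cannot be told apart.

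**Figure D2:**
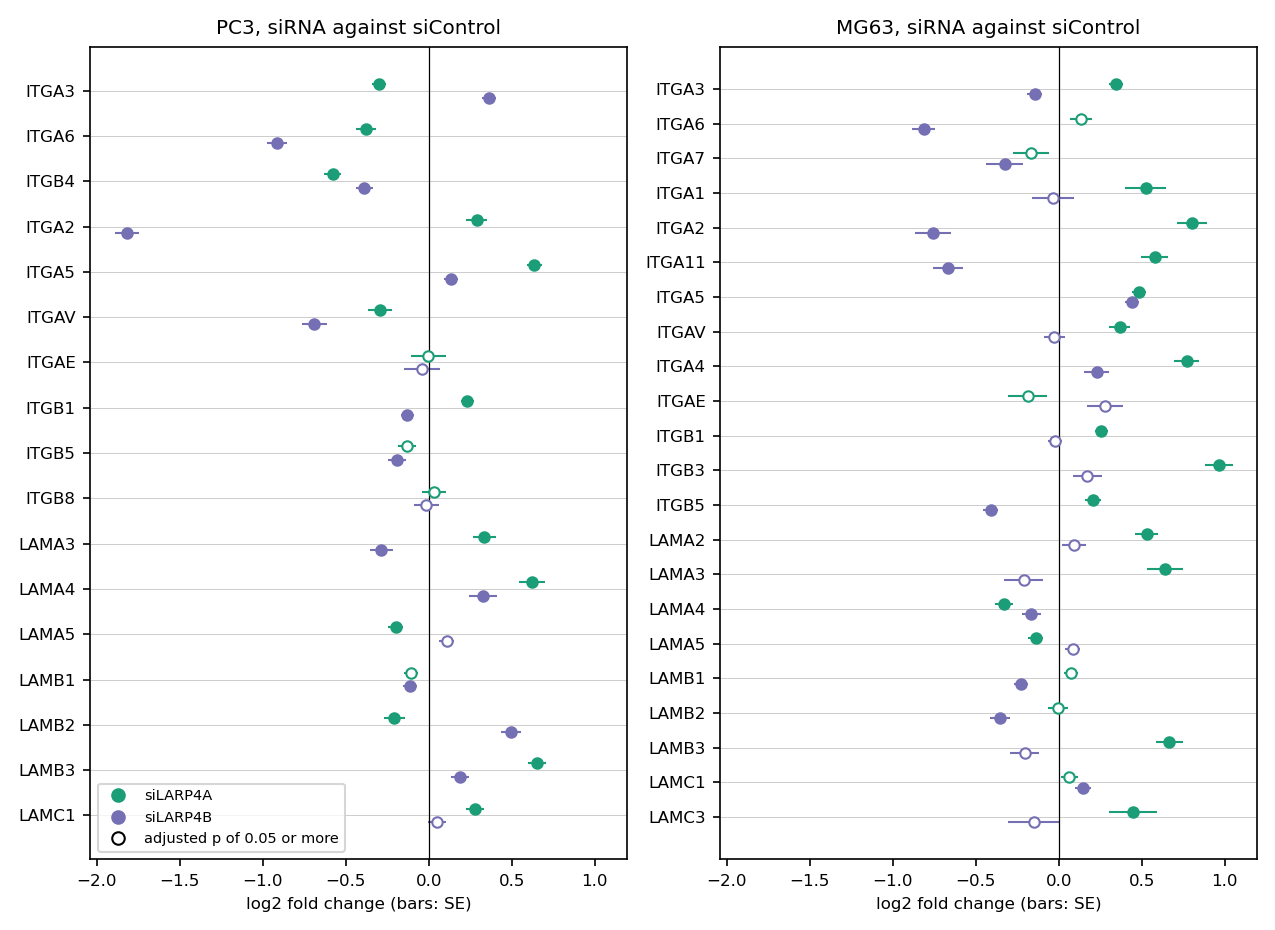
Log2 fold changes against siControl (bars, SE) of members expressed in PC3 (left, 17) and MG63 (right, 22), for siLARP4A (green) and siLARP4B (purple), with filled points past an adjusted p of 0.05. Green points in MG63 lie mostly right of 0, and ITGA2 and ITGA6 have purple points left of 0 in both lines.

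Among the laminin-binding chains, ITGA6 (chr2:172427586-172506458, plus strand) fell with siLARP4B in both lines. In PC3 it was 54.4 and 57.3 FPKM with siControl, 45.4 and 39.4 with siLARP4A, and 29.6 and 29.8 with siLARP4B. These 3 groups did not overlap, and siLARP4B was the lowest. The fall was 1.88-fold with siLARP4B (log2 -0.91, SE 0.06, adjusted p = 6.5e-11) and 1.30-fold with siLARP4A (log2 -0.38, SE 0.06, adjusted p = 3.1e-05). In MG63 ITGA6 was 13.3 and 13.1 FPKM with siControl, 15.1 and 13.9 with siLARP4A, and 7.08 and 7.79 with siLARP4B. Only siLARP4B lay below the controls there, and it passed the test (1.76-fold lower, log2 -0.82, SE 0.07, adjusted p = 1.2e-08), whereas siLARP4A did not (log2 0.13, adjusted p = 0.159). The fall of ITGA6 with siLARP4B differed between lines by -0.10 (SE 0.09, adjusted p = 0.482), with a 95% interval of -0.30 to 0.10. ITGB4, its partner in hemidesmosomes (chr17:75721459-75757818, plus strand), was 92.5 and 86.9 FPKM in PC3 siControl, 58.5 and 60.2 with siLARP4A and 70.5 and 66.8 with siLARP4B. Both knockdowns lay below the controls, siLARP4A further. ITGB4 fell 1.49-fold with siLARP4A (log2 -0.58, SE 0.05, adjusted p = 7.6e-09) and 1.31-fold with siLARP4B (log2 -0.39, SE 0.05, adjusted p = 1.2e-06).

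ITGA3, whose product binds the epithelial and the LAMA5 laminins, went opposite ways in PC3 (chr17:50056110-50090481, plus strand). Its level there was 104 and 101 FPKM with siControl, 81.9 and 82.4 with siLARP4A, and 135 and 129 with siLARP4B. The groups did not overlap, with siLARP4A below and siLARP4B above the controls. The changes were -0.30 (SE 0.04, adjusted p = 1.3e-05) and 0.36 (SE 0.04, adjusted p = 5.3e-07) on the log2 scale. In MG63 the order was turned: 102 and 106 FPKM with siControl, 131 and 133 with siLARP4A, and 96.2 and 89.5 with siLARP4B. The rise with siLARP4A passed (log2 0.34, SE 0.04, adjusted p = 3.2e-06). The log2 change with siLARP4B was -0.14 (adjusted p = 0.0127), and without MG63 siLARP4B replicate 2 it was -0.09 with an adjusted p of 0.170, and without MG63 siControl replicate 2 -0.12 with 0.136. ITGA7, a laminin receptor chain of muscle, was at most 5.09 FPKM in MG63 and 0.856 in PC3.

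The collagen-binding ITGA2 (chr5:52989352-53094779, plus strand), whose promoter window is shown above, moved up with siLARP4A and down with siLARP4B in each line. In PC3 it was 17.6 and 18.5 FPKM with siControl, 23.4 and 20.1 with siLARP4A, and 4.96 and 5.30 with siLARP4B. The siLARP4B libraries were far below the other 4. ITGA2 fell 3.53-fold with siLARP4B (log2 -1.82, SE 0.07, adjusted p = 2.2e-14) and rose 1.22-fold with siLARP4A (log2 0.29, SE 0.07, adjusted p = 0.00130). The rise did not pass with limma on log2(FPKM + 0.1) (0.26, adjusted p = 0.0633). In MG63 it was 2.42 and 2.47 FPKM with siControl, 4.35 and 4.20 with siLARP4A, and 1.31 and 1.55 with siLARP4B. Again the 3 groups did not overlap, with siLARP4A highest. The rise was 1.75-fold (log2 0.80, SE 0.09, adjusted p = 7.3e-07) and the fall 1.69-fold (log2 -0.76, SE 0.11, adjusted p = 9.0e-06). ITGA11 did the same in MG63 (chr15:68296532-68432163, minus strand), at 4.95 and 4.78 FPKM with siControl, 7.32 and 7.18 with siLARP4A, and 3.27 and 2.77 with siLARP4B, again without overlap. It rose 1.49-fold (log2 0.58, SE 0.08, adjusted p = 1.5e-05) and fell 1.59-fold (log2 -0.67, SE 0.09, adjusted p = 4.3e-06). ITGA1, another collagen receptor chain, was 0.916 and 0.864 FPKM in MG63 siControl and 1.38 and 1.18 with siLARP4A, with no overlap. Its log2 change was 0.52 (SE 0.12, adjusted p = 0.00251), and 0.42 with an adjusted p of 0.0563 without MG63 siLARP4A replicate 1.

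ITGA5, the alpha chain of the fibronectin receptor (chr12:54395261-54419266, minus strand), was the expressed member that rose with both siRNAs in both lines. In PC3 it was 36.1 and 35.7 FPKM with siControl, 55.6 and 54.6 with siLARP4A, and 40.1 and 38.9 with siLARP4B. The siLARP4A libraries stood well above the rest. The rise was 1.55-fold with siLARP4A (log2 0.64, SE 0.04, adjusted p = 2.2e-10), and the log2 change with siLARP4B was 0.13 (adjusted p = 0.0172), a call that 8 of the 12 fits without 1 library lost, for example without PC3 siControl replicate 2 (0.11, adjusted p = 0.138). In MG63 it was 80.1 and 82.6 FPKM with siControl, 114 and 114 with siLARP4A, and 111 and 108 with siLARP4B. Both knockdowns lay above the controls, by 1.40-fold (log2 0.48, SE 0.04, adjusted p = 1.4e-08) and 1.36-fold (log2 0.44, SE 0.04, adjusted p = 3.5e-08). ITGAV, the alpha chain of vitronectin receptors (chr2:186590056-186680901, plus strand), was 8.35 and 8.63 FPKM in PC3 siControl, 7.49 and 6.13 with siLARP4A and 5.23 and 5.31 with siLARP4B. The siLARP4B libraries were lowest, 1.61-fold below the controls (log2 -0.69, SE 0.07, adjusted p = 1.2e-07), and siLARP4A 1.22-fold (log2 -0.29, SE 0.07, adjusted p = 0.00246). In MG63 ITGAV was 18.9 and 18.7 FPKM with siControl, 24.8 and 23.6 with siLARP4A, and 18.0 and 18.4 with siLARP4B. There it rose with siLARP4A (log2 0.37, SE 0.06, adjusted p = 1.3e-04) and did not pass with siLARP4B (log2 -0.03, adjusted p = 0.791).

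ITGB3, which pairs with ITGAV and ITGA2B (chr17:47253827-47313743, plus strand), had the largest siLARP4A change of any member expressed in MG63. It was 4.15 and 4.21 FPKM with siControl, 8.35 and 7.97 with siLARP4A, and 4.71 and 4.59 with siLARP4B. Both siLARP4A libraries stood above all others, a 1.95-fold rise over siControl (log2 0.97, SE 0.08, adjusted p = 1.2e-08), and siLARP4B did not pass (log2 0.17, adjusted p = 0.134). ITGA4, a receptor chain for fibronectin and VCAM1 (chr2:181457386-181538939, plus strand), was 9.63 and 9.28 FPKM in MG63 siControl, 16.2 and 16.1 with siLARP4A, and 9.913 and 11.98 with siLARP4B. It rose 1.71-fold with siLARP4A (log2 0.77, SE 0.07, adjusted p = 7.5e-08). Its siLARP4B value was 0.23 on the log2 scale (adjusted p = 0.0219), and 0.09 with an adjusted p of 0.440 without MG63 siLARP4B replicate 2. ITGB1 was 238 and 254 FPKM in PC3 siControl and 314 and 317 in MG63. It rose with siLARP4A to 295 and 276 FPKM in PC3 (log2 0.23, SE 0.04, adjusted p = 9.6e-05) and 378 and 375 in MG63 (log2 0.26, SE 0.04, adjusted p = 4.8e-05), each above its controls. With siLARP4B in PC3 it was called lower, at 227.9 and 222.8 FPKM. ITGB5, another ITGAV partner, was 49.8 and 50.1 FPKM in MG63 siControl, 58.7 and 56.5 with siLARP4A, and 37.7 and 36.5 with siLARP4B. It rose by 0.21 (adjusted p = 0.00202) and fell by 0.41 (adjusted p = 6.2e-07) on the log2 scale. In PC3 ITGB5 was also called lower with siLARP4B, at 15.18 and 14.75 FPKM with siControl and 13.08 and 13.2 with siLARP4B. ITGB8, also an ITGAV partner, did not pass in PC3 with either siRNA and stayed between 7.25 and 8.55 FPKM.

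**Figure D3:**
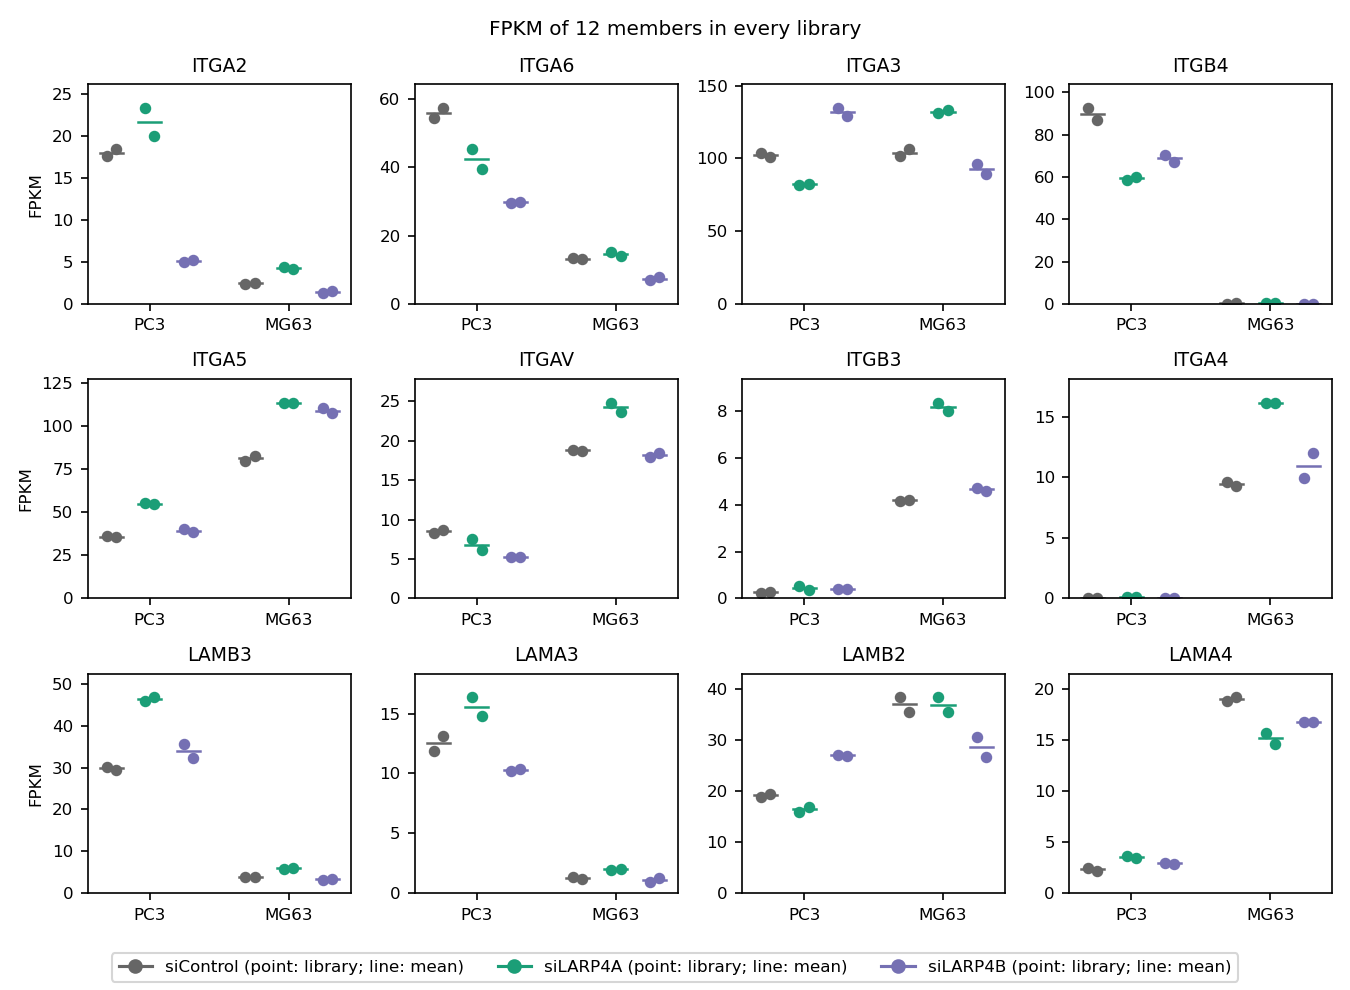
FPKM of 12 members in every library (points) with group means (lines), siControl grey, siLARP4A green and siLARP4B purple, each panel on its own axis from 0. ITGA2 in PC3 falls from 17.6 and 18.5 to 4.96 and 5.30 with siLARP4B, and ITGB3 in MG63 rises from 4.15 and 4.21 to 8.35 and 7.97 with siLARP4A.

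LAMB3 and LAMA3, chains of the epithelial laminin, rose with siLARP4A in both lines. LAMB3 (chr1:209614873-209651334, minus strand) was 30.2 and 29.4 FPKM in PC3 siControl, 45.9 and 47.0 with siLARP4A, and 35.7 and 32.3 with siLARP4B. Levels in MG63 were 3.79 and 3.73, 5.85 and 6.08, and 3.16 and 3.27 FPKM in the same order. In each line the siLARP4A libraries were the highest. The rise was 1.57-fold in PC3 (log2 0.66, SE 0.05, adjusted p = 4.0e-09) and 1.59-fold in MG63 (log2 0.67, SE 0.08, adjusted p = 1.7e-06), a difference between lines of -0.01 (SE 0.10, adjusted p = 0.983). With siLARP4B in PC3 its log2 change was 0.19 (adjusted p = 0.00788), and 0.11 with an adjusted p of 0.222 without PC3 siLARP4B replicate 1. LAMA3 (chr18:23689453-23955065, plus strand) was 11.9 and 13.1 FPKM in PC3 siControl, 16.4 and 14.8 with siLARP4A, and 10.2 and 10.4 with siLARP4B. The groups did not overlap, with siLARP4A above and siLARP4B below the controls. LAMA3 rose 1.26-fold (log2 0.34, SE 0.07, adjusted p = 4.8e-04) and fell 1.22-fold (log2 -0.29, SE 0.07, adjusted p = 0.00198). With limma on log2(FPKM + 0.1) neither call passed (0.31 and -0.28, adjusted p = 0.0693 and 0.0840). In MG63 it was low, 1.34 and 1.19 FPKM, and rose to 1.95 and 1.99 with siLARP4A (log2 0.64, SE 0.11, adjusted p = 1.0e-04).

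The tables hold 6 models of LAMA3. Short models that begin at chr18:23873020, just after the window shown above, were at 15.3 and 16.3 FPKM in PC3 siControl and 19.5 and 17.8 with siLARP4A in the longer of these (5617 bases). A model confined to the upstream part of the gene (chr18:23689453-23773834, 1751 bases) was at 7.19 and 9.15 FPKM and 10.8 and 10.6. Long and short models share their 3′ exons, and fragments in them count for each. Both parts of the gene were thus represented in PC3, and both were higher with siLARP4A. These model values carry no test.

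LAMA4, a laminin chain of vessels and mesenchyme (chr6:112107931-112254567, minus strand), moved in opposite directions in the lines. In PC3 it was 2.44 and 2.18 FPKM with siControl, 3.58 and 3.44 with siLARP4A, and 2.97 and 2.82 with siLARP4B. Levels in MG63 were 18.8 and 19.2, 15.7 and 14.6, and 16.7 and 16.8 FPKM in the same order. The PC3 knockdowns lay above their controls and the MG63 knockdowns below. With siLARP4A the change was a 1.54-fold rise in PC3 (log2 0.62, SE 0.08, adjusted p = 2.2e-06) and a 1.26-fold fall in MG63 (log2 -0.33, SE 0.06, adjusted p = 1.3e-04). LAMA2 in MG63 was 7.23 and 7.13 FPKM with siControl and 10.8 and 9.89 with siLARP4A, a 1.44-fold rise (log2 0.53, SE 0.07, adjusted p = 4.3e-06). LAMB2, a beta chain of mature basement membranes (chr3:49121114-49133050, minus strand), was 18.9 and 19.4 FPKM in PC3 siControl and 27.2 and 26.9 with siLARP4B, and in MG63 38.5 and 35.6 against 30.6 and 26.7. It rose 1.41-fold in PC3 (log2 0.49, SE 0.06, adjusted p = 1.0e-06) and fell 1.28-fold in MG63 (log2 -0.35, SE 0.06, adjusted p = 8.6e-05). LAMC1, the gamma chain of most laminins, rose with siLARP4A in PC3, from 13.4 and 14.1 to 17.3 and 15.6 FPKM (log2 0.28, SE 0.06, adjusted p = 3.6e-04). LAMA5 fell there from 50.4 and 53.1 to 45.0 and 44.0 FPKM (log2 -0.20, adjusted p = 0.00134). LAMB1 fell with siLARP4B in MG63, from 74.3 and 76.0 to 63.2 and 63.7 FPKM (log2 -0.23, adjusted p = 2.5e-04). It was also called lower with siLARP4B in PC3, at 65.03 and 65.21 FPKM with siControl and 59.88 and 60.91 with siLARP4B.

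Set against each other, the knockdowns differed most, among expressed members, at ITGA2, which was 4.31-fold higher with siLARP4A than with siLARP4B in PC3 (log2 2.11, SE 0.07, adjusted p = 8.3e-16) and 2.95-fold higher in MG63 (log2 1.56, SE 0.10, adjusted p = 4.3e-11). In PC3, 11 members were higher and 5 lower with siLARP4A, beside 54.1% of all genes called, 26.3% higher and 27.8% lower. In MG63, 23 were higher and 3 lower, beside 43.8% of all genes called, 21.6% higher and 22.2% lower, and 21 of those 26 calls were kept whichever library was left out. Of the 18 members expressed in PC3, 10 were higher, 4 lower and 4 did not pass. Of the 22 expressed in MG63, 16 were higher, 3 lower and 3 did not pass. The other calls were of members under 1 FPKM in that line. Such members may have passed the filter through the group where they were higher, so nothing is read from those calls. LAMB2 and ITGA3 were lower with siLARP4A than with siLARP4B in PC3 (log2 -0.70 and -0.66, adjusted p = 3.3e-09 and 2.9e-11) and higher in MG63 (0.35 and 0.49, adjusted p = 5.5e-05 and 7.8e-09). Differences of at least 0.5 were called for 8 members in PC3 and 17 in MG63, low members included, beside 26.9% and 18.1% of all genes. ITGA5 in MG63 did not separate them, with a difference of 0.04 and a 95% interval of -0.05 to 0.13.

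The siLARP4A effect differed between the lines for 9 members, 1 higher and 8 lower in PC3, beside 11.2% of all genes called, 5.74% higher and 5.46% lower. Of these, 8 differed by at least 0.5, beside 4.83% of all genes. LAMA4 was the 1, by 0.95 on the log2 scale. ITGAV (-0.66), ITGA3 (-0.64), ITGA2 (-0.52), ITGA6 (-0.51) and ITGB5 (-0.34) were among the 8, all 5 kept whichever library was left out, but ITGA2 did not pass with limma on log2(FPKM + 1) (-0.36, adjusted p = 0.0630). The siLARP4B effect differed for 13, 9 higher and 4 lower in PC3, beside 26.8% of all genes called, 12.4% higher and 14.4% lower. Of these, 9 differed by at least 0.5, beside 13.5% of all genes. Without PC3 siLARP4B replicate 2, MG63 siControl replicate 1 or MG63 siLARP4B replicate 1 the count was 8, and 6 calls were kept whichever library was left out: ITGA2 (-1.06), ITGAV (-0.66), ITGA5 (-0.31), LAMA4 (0.49), ITGA3 (0.51) and LAMB2 (0.85). Members called in the same direction in both lines with siLARP4A were 7 that rose (ITGA2, ITGA4, ITGA5, ITGB1, ITGB3, LAMA3 and LAMB3) and 1 that fell (LAMA5), 7 and 1 of 33, beside 7.60% of all tested genes higher and 7.35% lower in both lines. In PC3 the ITGA4 call rested on 2 and 4 fragments with siControl and 20 and 13 with siLARP4A. Its log2 change there was as low as 0.117 among the alternatives. ITGA4 and ITGB3 are low in PC3, where ITGB3 lost its call without PC3 siLARP4A replicate 1 (log2 0.49, adjusted p = 0.212, from 0.80). The fall of LAMA5 in MG63 (-0.14, adjusted p = 0.0277) was lost without MG63 siLARP4A replicate 2 (-0.12, adjusted p = 0.184).

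The make-up of the alpha chains shifted in PC3, where ITGA3 supplied 45.4% ± 0.923 (SD, n = 2) of the summed alpha-chain FPKM with siControl, 38.5% ± 1.48 with siLARP4A and 60.8% ± 0.589 with siLARP4B. ITGA6 supplied 24.8% ± 0.866, 19.8% ± 1.32 and 13.7% ± 0.333 in the same order. The share of ITGA5 was 15.9% ± 0.191, 25.8% ± 0.559 and 18.2% ± 0.0637. The summed level of the 18 alpha chains in PC3 was 225.6 FPKM ± 0.536 with siControl, 213.5 ± 7.38 with siLARP4A and 217.2 ± 3.95 with siLARP4B. The sum in MG63 was 244.0 FPKM ± 4.55 with siControl, 322.3 ± 0.439 with siLARP4A and 252.6 ± 5.58 with siLARP4B. There the ITGA3 share was 42.6% ± 0.423, 40.99% ± 0.495 and 36.8% ± 1.07, and that of ITGA5 33.3% ± 0.0828, 35.3% ± 0.0920 and 43.3% ± 0.200. Shares of a sum are tied to each other and carry no test.

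**Figure D4:**
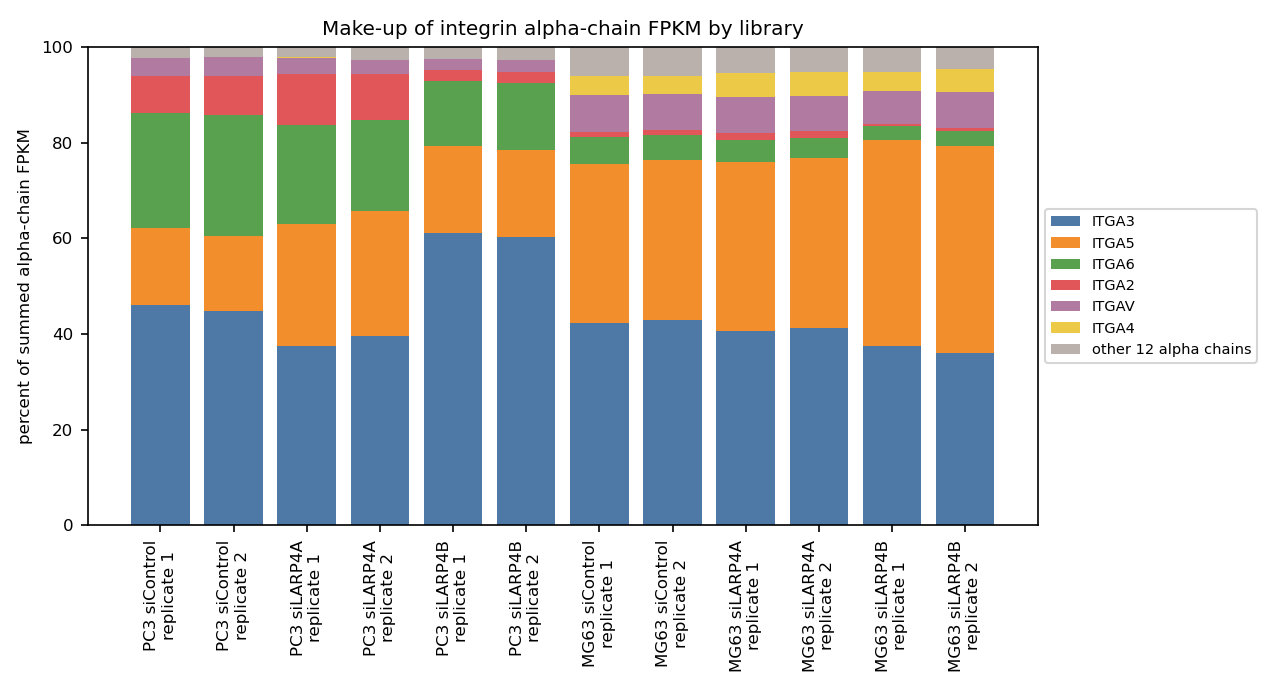
Percent of the summed alpha-chain FPKM supplied by 6 alpha chains and by the other 12 together, in each library. In PC3 the ITGA3 share is largest with siLARP4B (60.8% on average) and the ITGA5 share largest with siLARP4A (25.8%), and in MG63 ITGA5 is largest with siLARP4B (43.3%).

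The 13 members low in both lines included the leukocyte chains ITGAL, ITGAM, ITGAX, ITGAD, ITGB2 and ITGB7 and the platelet chain ITGA2B. ITGAD, ITGAL, ITGAM, ITGB6 and LAMB4 were too low to test. Among the other 8, ITGA10 in PC3 was 0.315 and 0.317 FPKM with siControl and 0.834 and 0.678 with siLARP4B, without overlap (log2 1.26, SE 0.23, adjusted p = 1.2e-04). ITGA9 had 0 fragments in PC3 siControl and 0.0199 and 0.0225 FPKM with siLARP4B, so its call there has no fold. ITGA8 had 0 fragments in PC3 siControl and siLARP4A. LAMA1, a laminin chain of early embryos, was at most 0.178 FPKM. LAMC3 was low in PC3, and in MG63 it was 0.838 and 0.927 FPKM with siControl and 1.19 and 1.22 with siLARP4A. ITGAE, a leukocyte chain by its usual pairing, was expressed in both lines at 2.68 to 4.05 FPKM and did not pass in any comparison with siControl. Of the leukocyte markers, CD3E was at 0 in every library, CD14 averaged at most 2.41 FPKM and CD68 11.9 to 29.1. The platelet markers PF4, PPBP and GP1BA averaged at most 0.778.

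Genes that work with integrins and laminins were counted from 3 lists. Of 35 tested genes of the cytoplasmic adhesion machinery, 18 rose and 1 fell with siLARP4A in MG63 (median log2 0.19), and 14 calls, all higher, were kept whichever library was left out. The share called was 54.3%, beside 26.8% of all tested genes. There TNS3, a tensin that links beta chains to actin, rose by 1.54 (adjusted p = 1.2e-12) and NEDD9, a scaffold, by 0.67 (adjusted p = 3.5e-04). With siLARP4B in MG63 8 rose and 11 fell, 54.3% beside 34.9% of all genes, and 16 calls were kept whichever library was left out. Among the 11 were PXN, paxillin (-0.73, adjusted p = 2.3e-10), and PARVA, a parvin of the complex with ILK (-0.43, adjusted p = 1.8e-06). The 8 that rose included RSU1 (0.48, adjusted p = 6.9e-07) and GIT1 (0.395, adjusted p = 4.9e-05). In PC3, 11 rose and 6 fell with siLARP4A, 48.6% beside 36.4% of all genes, and 13 calls were kept whichever library was left out. There 7 rose and 12 fell with siLARP4B, 54.3% beside 45.7%, and 11 calls were kept. The share of all genes called rises where weakly expressed genes are left out. With a mean of at least 5 FPKM required, it was 49.3% with siLARP4A and 57.7% with siLARP4B in PC3. Both list shares in PC3 lay below these. In MG63 it was 36.6% and 46.0%. PXN fell in PC3 by 1.00 with siLARP4B (adjusted p = 7.0e-14), and TNS4, an epithelial tensin, by 0.92 with siLARP4A (adjusted p = 2.2e-08) and 1.02 with siLARP4B (adjusted p = 2.9e-09). Genes that rose in PC3 with siLARP4B included PTK2B (0.605, adjusted p = 0.00443), TNS2 (0.48, adjusted p = 3.2e-06) and TNS3 (0.43, adjusted p = 1.2e-06). LIMS1, a partner of ILK, rose by 0.57 with siLARP4A in PC3 (adjusted p = 5.4e-08).

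Of 17 tested non-laminin ligands, 5 rose and 4 fell in PC3 with siLARP4A, 5 and 6 with siLARP4B, and in MG63 8 and 4, and 4 and 5. These are 52.9%, 64.7%, 70.6% and 52.9% of the list, beside 36.4%, 45.7%, 26.8% and 34.9% of all tested genes, and in each comparison 7 calls were kept whichever library was left out. FN1, fibronectin, and FBN1, fibrillin, rose in PC3 with siLARP4A (log2 0.76 and 0.98, adjusted p = 3.8e-08 and 7.4e-10). ICAM1, a ligand of leukocyte integrins, rose in PC3 with siLARP4A (0.80, adjusted p = 9.3e-07) and siLARP4B (1.17, adjusted p = 1.4e-09) and in MG63 with siLARP4A (1.15, adjusted p = 1.5e-06). THBS1, thrombospondin, rose by 1.05 with siLARP4A (adjusted p = 2.1e-08) and fell by 0.89 with siLARP4B (adjusted p = 9.1e-07) in MG63. Of 20 tested basement membrane partners, 6 rose and 6 fell in PC3 with siLARP4A, 7 and 2 with siLARP4B, and in MG63 7 and 1, and 3 and 2. In the same order 12, 9, 8 and 5 of the 20 were called, beside the same shares of all genes, so with siLARP4B the list lay near the background in PC3 and below it in MG63. Of these calls 7, 6, 5 and 1 were kept whichever library was left out. The nidogens NID1 and NID2, which join laminin to the collagen network, rose with siLARP4A in PC3 (0.73 and 0.86, adjusted p = 6.1e-10 and 1.4e-07) and in MG63 (0.48 and 1.14, adjusted p = 3.0e-08 and 3.6e-06). CD151, a tetraspanin bound to ITGA3 and ITGA6, fell with siLARP4B in PC3 (-0.33, adjusted p = 4.4e-06) and MG63 (-0.34, adjusted p = 5.5e-06). It also fell with siLARP4A in PC3 (-0.298, adjusted p = 2.2e-05). COL17A1, the hemidesmosome collagen, fell in PC3 with siLARP4B (-0.92, adjusted p = 1.3e-04). CD151 and COL17A1 were the 2 of the list that fell in that comparison. Among the 7 that rose were CD82, another tetraspanin (1.57, adjusted p = 4.0e-05), NID2 (0.56, adjusted p = 3.7e-05) and AGRN, agrin (0.53, adjusted p = 5.7e-09).

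**Figure D5:**
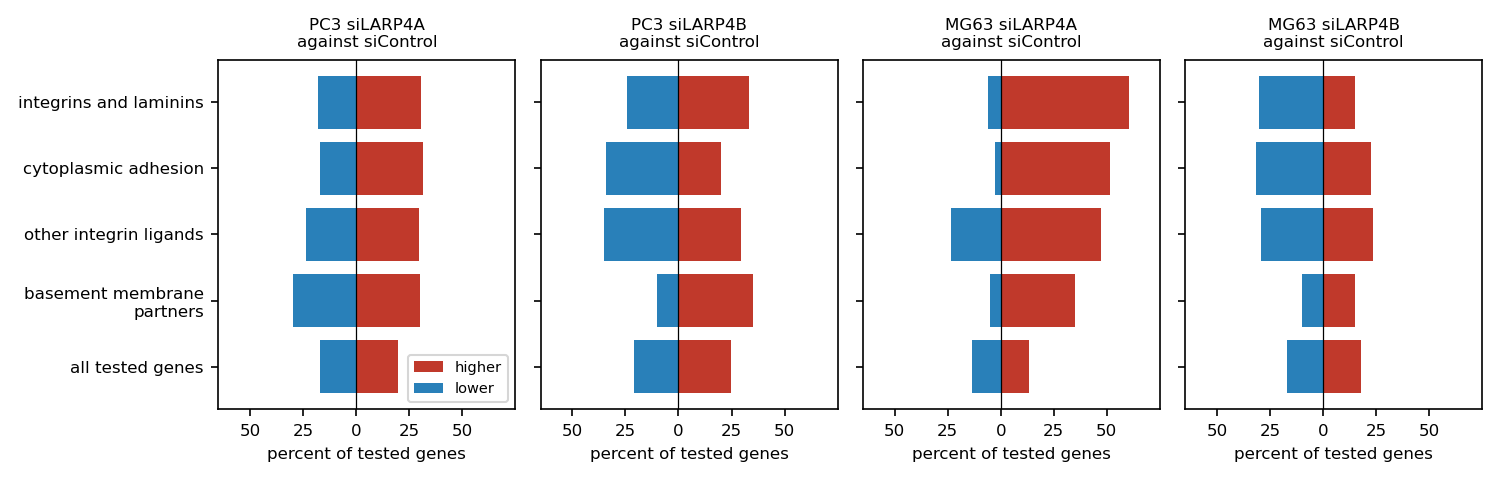
Percent of tested genes called higher (red, right of 0) and lower (blue, left of 0) among integrins and laminins, 3 lists of related genes and all tested genes, in each comparison with siControl. With siLARP4A in MG63 the integrins and laminins show 60.6% higher and 6.06% lower, beside 13.3% and 13.5% of all genes. Members under 1 FPKM in a line are included, and nothing is read from their calls.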

How the data were processed

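RNA from 12 libraries, 2 per group, was analysed from per-model tables of fragment counts and FPKM that the authors deposited, per the file headers. FastQC, HISAT2, featureCounts, edgeR and hg38 are named in the submitters' processing notes; versions, trimming and strand setting are not given in the sources used here. Each table holds 86394 models. The deposited FPM column, a signal scaled to the library total by the authors, gave those totals (fragment count over FPM). For each symbol on chromosomes 1 to 22, X, Y and M the model with most fragments over all libraries was kept, 1814 symbols at more than 1 locus were left out, and 26464 genes remained. Members were taken from chromosomes 1 to 22 and X. The members and lists, the motifs included, were chosen with earlier results of these data known. Members are named, library by library where called with a log2 change of at least 0.5 in a comparison with siControl and at 1 FPKM or more in that line, and some others beside them, chosen after their values were seen. From each list, genes were taken from the 3 highest and 3 lowest called in a comparison; those whose call any single library ended were left out, as were further ones for space. For 1 member and 1 marker gene, counted in the totals, results are not reported here.

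Counts were fitted with edgeR 4.0.16 in R 4.3.3 (TMM scaling, filterByExpr, 6 group means over 12 libraries, quasi-likelihood F-test), with Benjamini-Hochberg adjustment over 15683 genes. The biological coefficient of variation was 4.22%. Intervals are 95%. P-values measure only the spread between these libraries. Library totals of 16950119 to 24864977 fragments limit genes with few fragments, and FPKM values are given without a test. The fit was tested on simulated data. DESeq2 1.42.0, limma 3.58.1 on log2 FPKM, other filters and scalings, each library left out and a replicate block were tried as alternatives. The main fit did not pair libraries by replicate number. Correlations of same-numbered deviations ran from -0.133 to 0.082, which cannot show whether libraries were prepared in pairs.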

Additional observations from a re-analysis of the deposited data

Results flagged for a closer look

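The effect of an siRNA differed between PC3 and MG63, by edgeR's test of the interaction, for 21 combinations of member and siRNA reported here, given as the log2 change in PC3 minus that in MG63. For siLARP4A the change was lower in PC3 for ITGB2 (-1.89, adjusted p = 0.0464), ITGB4 (-1.32, 8.3e-04), ITGA1 (-0.97, 0.00591), ITGAV (-0.66, 7.7e-05), ITGA3 (-0.64, 5.2e-07), ITGA2 (-0.52, 0.00404), ITGA6 (-0.51, 6.5e-04) and ITGB5 (-0.34, 0.00317). It was higher in PC3 for LAMA4 (0.95, 1.1e-06). ITGB4 was low in MG63, with group means of at most 0.343 FPKM, and ITGA1 was low in PC3, at most 0.336. ITGA1 was at -0.84 with an adjusted p of 0.0534 without PC3 siControl replicate 2. ITGA2 was at -0.36 with an adjusted p of 0.0630 with limma on log2(FPKM + 1). ITGB2, below 0.4 FPKM throughout, lost its call in 9 of the 12 fits without 1 library.

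For siLARP4B the change was lower in PC3 for ITGA2 (-1.06, adjusted p = 3.5e-06), ITGAV (-0.66, 3.0e-05), ITGB8 (-0.51, 0.0320) and ITGA5 (-0.31, 6.0e-04). It was higher in PC3 for ITGB7 (1.95, 0.0277), ITGA7 (0.92, 0.00831), LAMB2 (0.85, 2.6e-07), ITGA3 (0.51, 2.8e-06), LAMA4 (0.49, 9.6e-04), LAMB3 (0.39, 0.00696) and ITGB5 (0.22, 0.0269). Group means of ITGB8 were low in MG63 (at most 0.716 FPKM), those of ITGA7 in PC3 (0.769) and those of ITGB7 in both (0.399 in PC3, 0.268 in MG63). The fitted 5.17 for ITGA9 (adjusted p = 0.0160), low in both lines, has no fold, since PC3 siControl held 0 fragments. Single libraries ended 6 of these calls. They included ITGA7 without PC3 siLARP4B replicate 2 (0.75, 0.0774), LAMB3 without MG63 siLARP4B replicate 1 (0.32, 0.0590), and ITGB8 without MG63 siControl replicate 1 (-0.46, 0.120). ITGB5 without MG63 siLARP4B replicate 2 (0.14, 0.211), ITGB7 without PC3 siControl replicate 1 (1.38, 0.147) and ITGA9 without PC3 siControl replicate 2 (5.16, 0.0716) were the others.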

How the results depend on the processing

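Across alternatives, 6023 values kept their direction and side of the threshold, 259 lost a call, 90 gained one and 4 turned, where a change of sign without a call counts as kept. All 4 turned in the differences between lines under limma on log2(FPKM + 1), which shrinks changes of low genes: ITGA4 for siLARP4A (-0.60), and for siLARP4B ITGA11 (0.54), ITGA8 (-0.20) and ITGB4 (-0.27). That setting called 15 members for the siLARP4A difference between lines, in place of 9. With a mean of at least 5 FPKM required, 21 members were tested and 16 called in MG63 between the knockdowns.

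Leaving out each library in turn gave 15 to 19 called members for siLARP4A and 11 to 20 for siLARP4B in PC3, 14 to 22 and 9 to 16 in MG63, 14 to 17 and 21 to 26 between the knockdowns in PC3 and MG63, 7 to 13 and 8 to 13 for the differences between lines, and 28 to 29 between the lines. The siLARP4B difference had 8 without PC3 siLARP4B replicate 2, MG63 siControl replicate 1 or MG63 siLARP4B replicate 1. With a replicate block the counts were 16, 17, 21, 15, 16, 26, 8, 13 and 29 in that order. A crossed replicate block for PC3 siLARP4A, chosen after seeing the data, gave 17 against siControl and 18 against siLARP4B. Genes with few fragments limit the precision.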
